A study of Drosophila melanogaster with 12 samples.

Results

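MicroRNA precursor loci were examined in lists of RNA polymerase II (Pol II) peaks from Drosophila melanogaster Kc167 cells, a line of embryonic, hemocyte-like origin. The loci were all genes with a transcript of the biotype pre_miRNA in the Ensembl BDGP6 annotation: 260 of the 18277 genes on the 7 chromosome arms and chromosomes, with 2 more on an unplaced rDNA scaffold that were not analysed here. The question was where Pol II peaks lay relative to each precursor, to the coding gene that hosts it, or to the noncoding gene that carries it as its primary transcript, and whether the peaks differed after knockdown of AGO2 or LaminB. Chromatin was immunoprecipitated with the antibody 8WG16, which binds Pol II with a hypophosphorylated C-terminal domain, the form that loads at promoters. The groups were siAGO2 (cells nucleofected with 100 pmol of siRNA to AGO2, a core protein of RNA interference), dsLaminB (2 µg of double-stranded RNA to LaminB, a protein of the nuclear lamina) and mock (nucleofection without RNA), each with 2 libraries and each collected at day 3. All 3 groups were therefore nucleofected, the 2 knockdowns differed in the kind of RNA as well as in its target, and no control RNA was included.

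Most microRNAs are made by Pol II. The polymerase starts at a promoter that can lie far from the hairpin, the nuclear enzyme Drosha with its partner Pasha cuts the precursor out of the primary transcript, Dcr-1 with loqs releases the mature RNA in the cytoplasm, and AGO1 carries that RNA to its targets. A precursor may sit in an intron of a coding gene and share its host's promoter, may be a whole short intron that is freed by splicing (a mirtron), or may lie in a noncoding gene of its own. The mature RNA recognises targets mainly through its seed, bases 2 to 8, so precursors with the same seed form a family. A promoter peak therefore speaks of the start of a primary transcript and is no measure of the mature RNA.

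The 260 precursors were 50 to 174 bp long, with a median of 92 bp. A protein-coding gene on the same strand contained 136 of them, in 128 different host genes: 100 lay in introns only, 23 in exons only, 6 across an exon and an intron, and 7 in a position that differed between transcripts. Of the others, 30 lay within a coding gene on the opposite strand only and 94 in neither. Both ends of 34 precursors fell within 5 bp of the ends of an annotated intron, the form of a mirtron. Precursors of the same strand with gaps of at most 10000 bp were counted as 1 locus, which gave 203 loci, of which 22 held 2 or more precursors. Of the precursors without a coding host, 46 lay in 33 annotated noncoding genes, taken here as their primary transcripts.

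The mature RNAs below come from loci whose primary transcript had a Pol II peak at its start in all 6 libraries. They are shown because they are the microRNAs to which these start peaks lead. The positions of mature RNAs are those of RefSeq and the bases those of the BDGP6 (dm6) genome, read 5′ to 3′ as RNA, with the seed in capitals.
bantam, 3′ arm, chr3L:642259-642281, plus strand: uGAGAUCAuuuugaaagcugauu
mir-275, 3′ arm, chr2L:7425853-7425875, plus strand: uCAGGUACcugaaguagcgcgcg
mir-276a, 3′ arm, chr3L:10365281-10365302, plus strand: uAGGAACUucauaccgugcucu
mir-276b, 3′ arm, chr3L:10319846-10319867, plus strand: uAGGAACUuaauaccgugcucu
mir-279, 3′ arm, chr3R:29215651-29215672, plus strand: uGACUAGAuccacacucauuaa
mir-996, 3′ arm, chr3R:29217244-29217265, plus strand: uGACUAGAuuucaugcucgucu
mir-277, 3′ arm, chr3R:10100080-10100102, plus strand: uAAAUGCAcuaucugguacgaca
mir-34, 5′ arm, chr3R:10100952-10100975, plus strand: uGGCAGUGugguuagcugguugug
mir-282, 5′ arm, chr3L:3251038-3251061, plus strand: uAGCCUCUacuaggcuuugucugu
mir-276a and mir-276b share a seed and so do mir-279 and mir-996, which also share 1 primary transcript. The seed of mir-279 recurs in mir-286, and that of mir-275 in mir-306.

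For contrast, the next mature RNAs come from loci whose annotated primary transcript had no peak within 500 bp of a start in any of the 6 libraries. They include the best known muscle, neuron and developmental timing microRNAs.
mir-1, 3′ arm, chr2L:20487496-20487517, plus strand: uGGAAUGUaaagaaguauggag
mir-124, 3′ arm, chr2L:17566426-17566448, plus strand: uAAGGCACgcggugaaugccaag
let-7, 5′ arm, chr2L:18472044-18472064, plus strand: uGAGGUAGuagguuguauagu
mir-10, 5′ arm, chr3R:6809553-6809574, minus strand: aCCCUGUAgauccgaauuuguu
mir-9a, 5′ arm, chr3L:19565140-19565162, plus strand: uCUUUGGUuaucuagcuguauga
The seed of mir-9a is shared with mir-9b and mir-9c, which lie in an intron of the coding gene grp.

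The 6 peak lists differed in length, and most counts below moved with that length. They held 4089 and 5381 peaks in the siAGO2 libraries, 2531 and 4124 in the dsLaminB libraries and 5965 and 5601 in the mock libraries (replicates 1 and 2 of each), and covered between 0.667% of the chromosomes in dsLaminB replicate 1 and 3.03% in mock replicate 1. The deposited lists give no read counts, so the depth behind them is unknown and a missing peak is not evidence that Pol II was absent. Starts of the listed hemocyte genes carried a peak in all 6 libraries for 7 of 9 (srp, ush, Pxn, Hml, Col4a1, vkg and Ppn), whereas NimC1 had none in any library and eater had one in siAGO2 replicate 1 and both mock libraries only. Of the listed genes of other cell types, nSyb, brp, Mhc, Act88F, vas and bam had no peak at the start in any library, elav had one in all 6, nanos in 5 and wupA in 4. A peak at the AGO2 start was found in all 6 libraries, with fold enrichments of 3.22 and 8.71 in siAGO2, 4.15 and 7.44 in dsLaminB and 11.1 and 3.8 in mock, and at the Lam start in all but dsLaminB replicate 1. RNA interference acts on the transcript, so these peaks do not check the knockdowns.

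Pol II peaks rarely lay over a precursor itself. A peak overlapped at least 1 base of 8 and 16 of the 260 precursors in the siAGO2 libraries, 6 and 8 in the dsLaminB libraries and 19 and 14 in the mock libraries (replicates 1 and 2 of each). As shares these were 3.08% and 6.15%, 2.31% and 3.08%, and 7.31% and 5.38%. Over all annotated genes the shares were 26.9% and 35.1% in siAGO2, 15.6% and 25.7% in dsLaminB and 39.9% and 37.5% in mock, but whole genes are longer than precursors and contain their own start, so the 2 sets of shares are not matched for length. Upstream of the precursor the windows are of equal length, but the window of a whole gene adjoins its own start. A precursor can lie far from the start of its transcript, so these shares are not matched for position. A peak lay within the 2000 bp upstream of 48 and 58 precursors in siAGO2 (18.5% and 22.3%), 29 and 51 in dsLaminB (11.2% and 19.6%) and 59 and 61 in mock (22.7% and 23.5%). For all genes the upstream shares were 28.5% and 36.4%, 16.1% and 26.8%, and 41.7% and 39.3%, higher than for the precursors in each library.

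The starts of the coding host genes showed the opposite order. A peak lay within 500 bp of the start of a transcript spanning the precursor in 79 and 85 of the 128 hosts in siAGO2 (61.7% and 66.4%), 55 and 79 in dsLaminB (43.0% and 61.7%) and 86 and 87 in mock (67.2% and 68.0%). All protein-coding genes had such a peak in 35.4% and 44.8%, 20.2% and 33.6%, and 49.7% and 47.5%. Host genes were longer than coding genes in general, with a median of 14094.5 bp against 2164.5 bp, and 56.2% of them had several annotated starts against 26.5% of all coding genes, which gives a host more windows in which to meet a peak. The part of length and start number in the higher share was not tested.

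**Figure D1:**
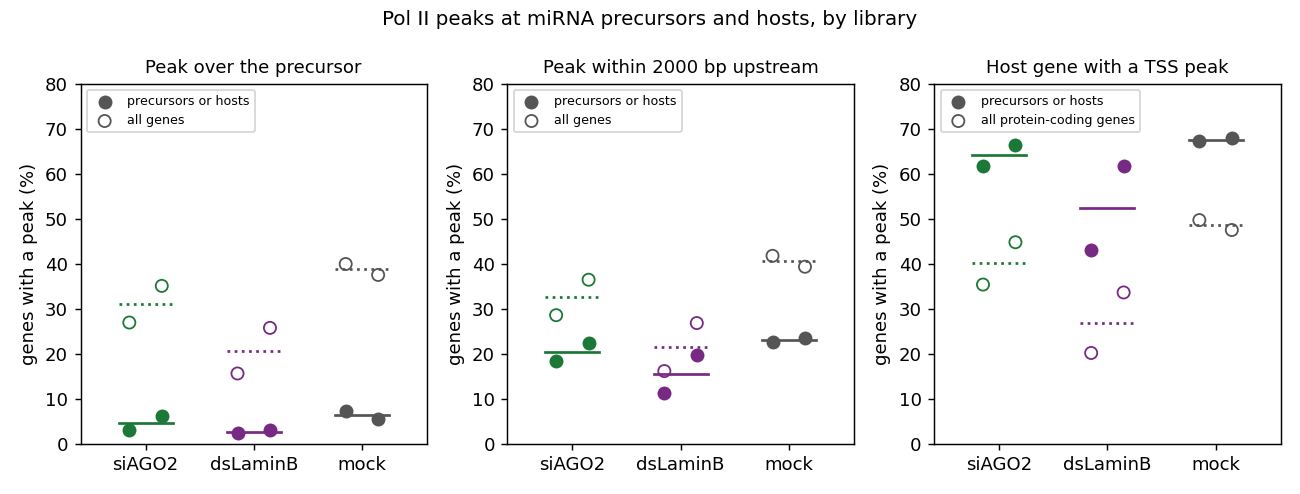
Percentage of miRNA precursors (left and middle) or of their coding hosts (right) with a Pol II peak, by library. Filled points are the libraries for the 260 precursors or 128 hosts, open points the same windows over all genes or all protein-coding genes, and lines the group means; precursors lie below all genes in both precursor windows, and hosts lie above all coding genes, in each of the 6 libraries.

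The mean number of loci with a peak was lower in both knockdowns than in mock in all 3 measures, but 2 libraries a group are too few for the test to decide. Peaks over the precursor averaged 12 ± 5.66 in siAGO2, 7 ± 1.41 in dsLaminB and 16.5 ± 3.54 in mock (SD, n = 2 each). The differences were -4.5 for siAGO2 minus mock (pooled SD 4.72, two-sided exact permutation test p = 0.667), -9.5 for dsLaminB minus mock (pooled SD 2.69, exact p = 0.333) and 5 for siAGO2 minus dsLaminB (pooled SD 4.12, exact p = 0.667). Upstream peaks averaged 53 ± 7.07, 40 ± 15.6 and 60 ± 1.41 precursors in siAGO2, dsLaminB and mock, with differences of -7 (exact p = 0.333), -20 (exact p = 0.333) and 13 (exact p = 0.667) in the same order of comparisons. Hosts with a peak at the start averaged 82 ± 4.24, 67 ± 17.0 and 86.5 ± 0.707, with differences of -4.5 (exact p = 0.333), -19.5 (exact p = 0.333) and 15 (exact p = 0.667). With 2 libraries against 2 the smallest p the test can give is 0.333, so none of the 9 comparisons could pass a threshold of 0.05, and after Benjamini-Hochberg adjustment over the 9 they stood between 0.6 and 0.667. The shorter lists of the knockdowns moved with these counts: when each list was cut to its 2531 strongest peaks, the siAGO2 minus mock differences became 0.5 for upstream windows and 1 for host starts, and the dsLaminB minus mock differences -3 and -2. Over the precursor the differences kept more of their size, at -3.5 for siAGO2 minus mock (exact p = 0.667) and -5.5 for dsLaminB minus mock (exact p = 0.333).

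Precursors in coding hosts carried a peak only where they lay close to the host's start. Of the 19 precursors under 500 bp from it, 5 and 8 were under a peak in siAGO2, 3 and 6 in dsLaminB and 10 and 8 in mock. Of the 31 from 500 bp to under 2000 bp, the counts were 0 and 2, 0 and 0, and 2 and 1. None of the 58 precursors from 2000 bp to under 10000 bp and none of the 28 at 10000 bp or more was under a peak in any library. Hosts of these distant precursors were often occupied at the start. Counts are of precursors, so a host of several counts more than once. The host had such a peak for 42 and 42 of the 58 in siAGO2, 27 and 38 in dsLaminB and 42 and 43 in mock. For the 28 the counts were 16 and 18, 15 and 17, and 20 and 19. In no library did a precursor with a coding host lie under a peak while its host lacked one at the start. For precursors under 500 bp from the start this follows largely from the window itself, which spans 500 bp on either side.

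**Figure D2:**
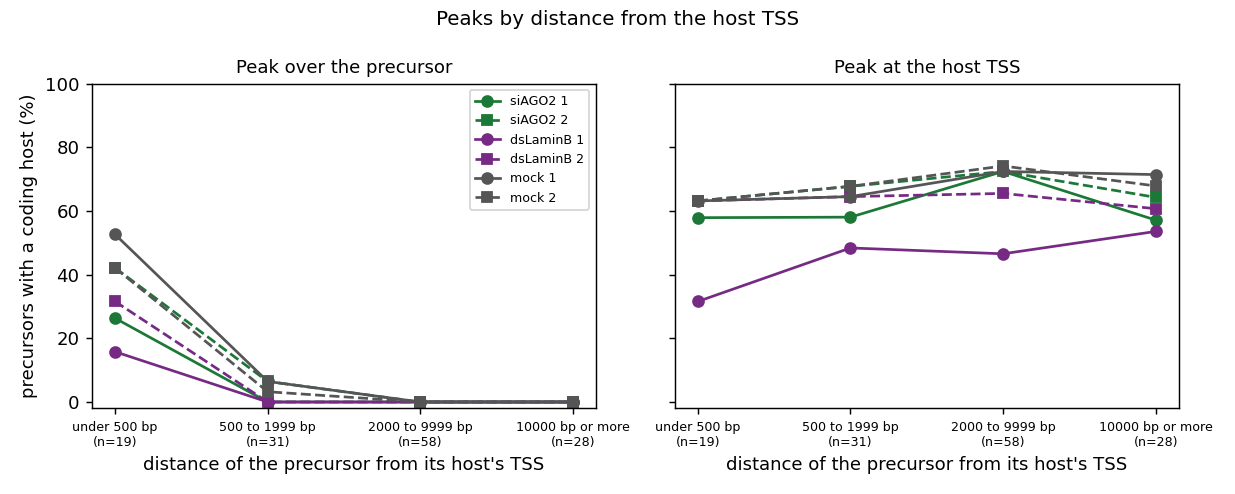
Percentage of precursors with a coding host that lay under a Pol II peak (left) and whose host had a peak within 500 bp of its start (right), by distance from the host's start, with 1 line per library. No precursor 2000 bp or more from the host's start lies under a peak in any of the 6 libraries. In the 2000 to under 10000 bp bin the host has a start peak for between 46.6% and 74.1% of the precursors.

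In all, 22 precursors were under a peak in at least 1 library and 238 in none. Of the 22, 15 lay within 500 bp of a protein-coding start, 13 had a coding host, and none belonged to a locus with 2 or more precursors. Peaks in all 6 libraries were found over 5 precursors, mir-14, mir-4949, mir-4957, mir-4985 and mir-9373, which is 1.92% of the set against 14.9% of all annotated gene bodies. Without dsLaminB replicate 1, the shortest list, 7 were, mir-986 and mir-3645 being added.

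mir-14, which restrains cell death and fat storage in flies, was the only one of the 5 that did not lie beside a coding start. Its precursor (chr2R:9553762-9553824, plus strand) is 5627 bp from the nearest coding start, that of CG1888, and 918 bp inside its own noncoding gene, lncRNA:CR43651. A single peak covered both the start of that gene and the whole precursor in each library, with fold enrichments over input of 4.87 and 13.8 in siAGO2, 6.33 and 7.45 in dsLaminB and 9.51 and 7.85 in mock. The peak was 1521 and 1786 bp wide in siAGO2, 1400 and 1553 bp in dsLaminB and 1817 and 1701 bp in mock, where the median peak of the lists was 300 to 540 bp wide. In fold enrichment the siAGO2 range enclosed those of both other groups, and both dsLaminB values lay below both mock values.

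The other 4 lay within 332 bp of a coding start. mir-4985 lies in Fatp3, a member of the fatty acid transport protein family, 134 bp from its start. Its fold enrichments were 12.1 and 23.7 in siAGO2, 6.10 and 8.25 in dsLaminB and 16.8 and 13.0 in mock, so that both dsLaminB values were below all 4 others. In percentile terms (the rank of a peak's -log10 q value in its own list, 100 being the strongest) the same peak stood at 98.2 and 94.7, 64.3 and 81.9, and 95.9 and 98.0. Percentiles of coding starts with a peak in all 6 libraries were lowest in dsLaminB replicate 1 in general, as given below. mir-4949 lies in ATPsynC, which encodes a subunit of the mitochondrial ATP synthase, 187 bp from its start, with percentiles of 87.9 and 90.5 in siAGO2, 85.9 and 84.4 in dsLaminB and 87.4 and 89.7 in mock. mir-9373 lies 3 bp from the start of CG6231, with percentiles of 70.5 and 78.0, 36.7 and 54.0, and 60.6 and 60.8. mir-4957 lies on the strand opposite to its coding neighbour, 332 bp from the start of Top1, a DNA topoisomerase, with percentiles of 60.8 and 75.2, 69.8 and 73.0, and 74.7 and 76.8. ChIP does not carry strand, so a peak over these 4 cannot be told apart from the promoter peak of the coding gene.

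Several precursors were under the edge of a peak and dropped out as the peak narrowed. mir-986, 271 bp from the start of the cytochrome P450 gene Cyp4e2, was fully covered in both siAGO2 and both mock libraries, to 28.0% in dsLaminB replicate 2 and not at all in dsLaminB replicate 1. The Cyp4e2 start had a peak in all 6, 604 and 590 bp wide in siAGO2, 439 and 470 bp in dsLaminB and 741 and 632 bp in mock. mir-995, in the cell cycle kinase gene Cdk2, was covered to 53.3% in siAGO2 replicate 2, 13.3% in dsLaminB replicate 2 and 100% in both mock libraries. At mir-10404-4, a precursor on the X, the peak touched 1.45% of the precursor in siAGO2 replicate 2 and 2.90% in dsLaminB replicate 1, and at mir-4942 1.82% and 9.09% in the mock libraries, so these 2 counted as under a peak by very few bases.

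**Figure D3:**
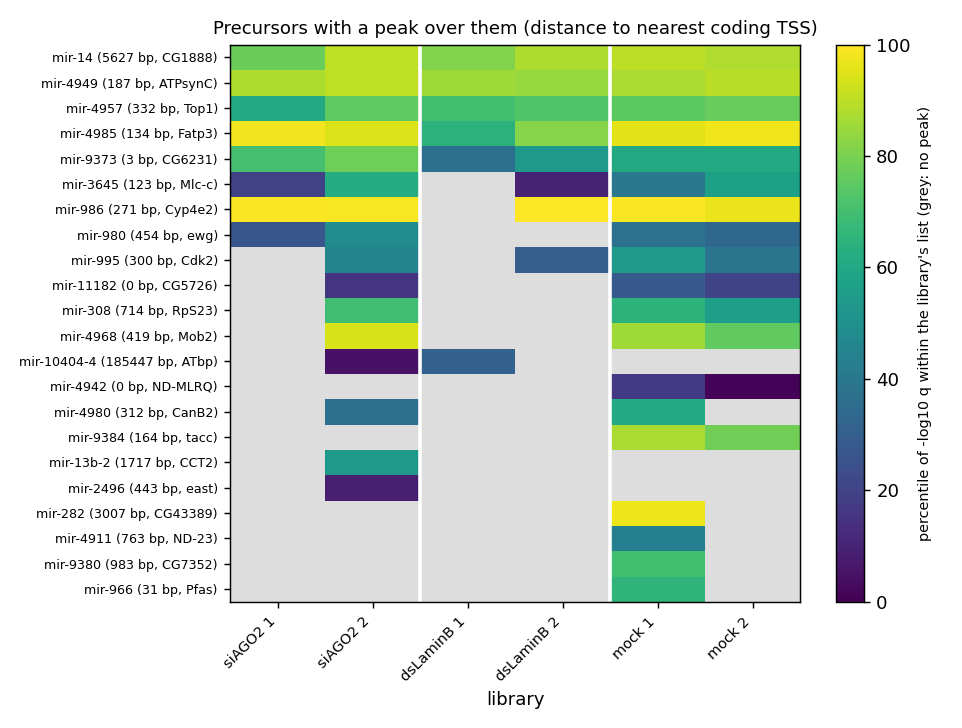
Strength of the peak over each of the 22 precursors that had one, as the percentile of its -log10 q within the library's own list, with grey for no peak; labels give the distance to the nearest protein-coding start and that gene. The upper 5 rows are filled in all 6 libraries, and dsLaminB replicate 1 has the fewest filled cells.

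Peaks upstream of the precursor were found in all 6 libraries for 29 precursors, or 46 without dsLaminB replicate 1. The 29 are 11.2% of the set, against 15.6% of all genes with the same window. Of the 29, 17 had a coding host, 10 had neither kind of host and 2 had an antisense host. Those inside an annotated noncoding gene and no coding host were 7: bantam, mir-8, mir-14, mir-275, mir-276a, mir-279 and mir-282. The peak nearest to the precursor ended 1056 and 1057 bp upstream of mir-276a in siAGO2, 1090 and 1067 bp in dsLaminB and 1055 and 1054 bp in mock. It ended 500 and 513 bp upstream of mir-8 in siAGO2, 563 and 506 bp in dsLaminB and 329 and 502 bp in mock. At mir-276a the siAGO2 and mock distances lay within 3 bp of each other.

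The starts of the noncoding primary transcripts had a peak more often than those of noncoding RNA genes in general. A peak was found within 500 bp of an annotated start in 13 and 11 of the 33 primary genes in siAGO2 (39.4% and 33.3%), 11 and 11 in dsLaminB (33.3% in each) and 13 and 13 in mock (39.4% in each). Over the 3029 noncoding RNA genes, precursors left out, the shares were 9.05% and 12.0% in siAGO2, 5.78% and 8.88% in dsLaminB and 14.2% and 12.5% in mock. A peak at any start counted, and the primary genes had 1 to 4 starts each. The part of start number in the higher share was not tested. The same 11 primary genes had the peak in all 6 libraries, 33.3% of the 33 against 5.51% of noncoding RNA genes, and leaving out dsLaminB replicate 1 did not change the 11. Both genes that completed the 13, asRNA:CR17025 and asRNA:CR46354, carry mir-252 and share 1 start. Their peak was weak, with percentiles of 0.477 in siAGO2 replicate 1 and of 29.0 and 17.5 in the mock libraries, and it was absent from siAGO2 replicate 2 and both dsLaminB lists. The remaining 20 primary genes had no peak at a start in any library.

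These 11 genes carry bantam (lncRNA:CR43334), mir-8 (lncRNA:CR43650), mir-14 (lncRNA:CR43651), mir-184 (lncRNA:CR44206), mir-275 (lncRNA:CR43857), mir-276a (lncRNA:CR46006), mir-276b (lncRNA:CR46004), mir-277 and mir-34 (lncRNA:CR43459), mir-279 and mir-996 (lncRNA:CR31044), mir-282 (lncRNA:CR43626) and mir-4951 (lncRNA:Hsromega, the heat-inducible RNA of nuclear omega speckles). Their starts lay 1325 to 48799 bp from the nearest protein-coding start, so none shared the 500 bp window with a coding promoter, and 743 to 20095 bp from the precursor. Where a gene has several annotated starts, the one with the highest mean percentile stands for it here and below. The starts of the mir-276a gene 41727, 38463 and 32767 bp before the precursor had no peak in any library. A mir-8 start 2337 bp before its precursor had one in 5 libraries. At the starts so chosen, the start base itself was under the peak in all 6 libraries in 10 of the 11. The exception was mir-276b, whose peak was the weakest, with percentiles of 1.24 and 8.26 in siAGO2, 27.3 and 15.5 in dsLaminB and 17.4 and 7.01 in mock.

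The peaks at the other 10 ranked high in most lists. In the top 25% of the list lay 10 and 10 of the 11 in siAGO2, 8 and 10 in dsLaminB and 10 and 10 in mock, and the median percentile over the 11 was 90.9 and 93.2, 81.6 and 89.5, and 92.3 and 93.9. Among the 2750 protein-coding genes with a start peak in all 6 libraries the median percentile was 69.7 and 76.8 in siAGO2, 50.5 and 69.6 in dsLaminB and 78.9 and 77.5 in mock. Among the 156 other noncoding RNA genes of that kind it was 72.2 and 80.2, 62.0 and 73.6, and 82.7 and 80.2. These medians are a description: the 11 were taken for having a peak in all 6 lists, as were the genes beside them.

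The widths of the 11 peaks followed the lists. The widest peak at each of the 11 starts was in a mock library, and the narrowest was in dsLaminB replicate 1 at 10 of them. The median width was 595 and 699 bp in siAGO2, 399 and 492 bp in dsLaminB and 1207 and 693 bp in mock, while the median of all peaks was 361 and 464 bp, 300 and 351 bp, and 540 and 481 bp. Both siAGO2 peaks were narrower than both mock peaks at 4 of the 11 starts, and both dsLaminB peaks at 9. Fold enrichment had no such order, since siAGO2 replicate 2 held the highest value at 9 of the 11 and its median over the 11, 16.4, stood above the 7.12 of siAGO2 replicate 1, the 7.39 and 7.41 of dsLaminB and the 11 and 9.85 of mock.

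mir-275, which has roles in fly physiology together with its neighbour mir-305, had the highest mean percentile of the 11 over the 6 libraries, 95.9 against 94.0 for mir-276a, which had the higher fold enrichment in 4 libraries. Its fold enrichments were 6.97 and 25.5 in siAGO2, 7.66 and 7.38 in dsLaminB and 11.2 and 12.3 in mock, and its percentiles 96.3 and 99.2, 88.6 and 96.3, and 96.3 and 98.7. The peak was 595 and 662 bp wide in siAGO2, 425 and 492 bp in dsLaminB and 1278 and 1200 bp in mock. Both knockdowns were therefore narrower than mock without overlap. Peaks covered 21.9% and 21.0% of the 1975 bp between the start and the mir-275 precursor in siAGO2, 13.0% and 16.1% in dsLaminB and 50.6% and 47.9% in mock. The 500 bp windows gave no start for mir-305, since the annotated gene ends before it, but its 2000 bp upstream window held a peak in all 6 libraries.

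mir-276a, which acts in the fly brain in dopamine receptor control, and mir-276b have the same seed and separate noncoding genes. The mir-276a start had fold enrichments of 10.5 and 23.1 in siAGO2, 7.33 and 8.79 in dsLaminB and 16.4 and 15.5 in mock, and the mir-276b start 2.91 and 3.39, 4.33 and 3.39, and 3.97 and 3.31. The 2 copies thus differed in rank in every library, with percentiles of 79.1 to 99.5 for mir-276a and 1.24 to 27.3 for mir-276b.

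mir-279 and mir-996, which share a seed and restrict the formation of carbon dioxide sensing neurons, start at 1 promoter 1023 bp before the mir-279 precursor. The fold enrichments there were 9.56 and 17.8 in siAGO2, 12.3 and 8.09 in dsLaminB and 11.1 and 9.85 in mock. All 6 percentiles stood between 90.8 and 97.5, and the groups overlapped.

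bantam, which promotes growth and blocks the cell death gene hid, had a string of peaks between its start and its precursor. Its noncoding gene has several annotated starts, the most distant of which lies 13773 bp before the precursor. At that start the fold enrichments were 7.59 and 16.4 in siAGO2, 7.39 and 9.59 in dsLaminB and 7.81 and 6.35 in mock, and the percentiles 96.1 and 95.2, 87.0 and 99.0, and 82.4 and 86.4. All 4 knockdown percentiles were thus above both mock percentiles, in lists that were shorter. The peak was 531 and 778 bp wide in siAGO2, 388 and 376 bp in dsLaminB and 3165 and 693 bp in mock. In mock replicate 1 a single peak ran from 413 bp before the start to 2751 bp after it, where mock replicate 2 had 1 peak from -309 to 383 bp and another from 1610 to 2687 bp. A further peak, from 11088 to 12186 bp and 11034 to 12202 bp after the start in siAGO2, 11140 to 12070 bp and 11100 to 12212 bp in dsLaminB and 11013 to 12246 bp and 11013 to 12218 bp in mock, was present in all 6 and covered a second annotated start of the gene. A small peak close to the precursor, 531 and 534 bp upstream of it, was present in both mock libraries and in none of the 4 knockdown libraries. It was weak, with percentiles of 22.7 and 19.6. Between the start and the precursor peaks covered 17.2% and 22.5% in siAGO2, 8.57% and 16.6% in dsLaminB and 36.3% and 21.9% in mock.

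mir-8, the fly member of the miR-200 family and a promoter of growth, had a start peak 743 bp before its precursor, with fold enrichments of 7.12 and 20.7 in siAGO2, 10.1 and 8.51 in dsLaminB and 12.5 and 13.6 in mock. mir-184, which is needed in the female germline, had 6.88 and 16.9, 9.33 and 7.41, and 8.96 and 11.1 at a start 7834 bp before its precursor. mir-277, which controls the breakdown of branched-chain amino acids, and mir-34, linked to ageing, share a start 6261 bp before mir-277, with 6.59 and 10.1 in siAGO2, 5.48 and 7.12 in dsLaminB and 11.8 and 6.89 in mock. At mir-184 and mir-277 the groups overlapped, and at mir-8 both dsLaminB values lay below both mock values while the siAGO2 values lay on either side of all 4. At mir-282 the peak reached the precursor in mock replicate 1 only, covering 14.4% of it, and peaks covered 95.8% and 96.7% of the stretch from start to precursor in siAGO2, 55.6% and 92.1% in dsLaminB and 100% and 95.5% in mock.

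**Figure D4:**
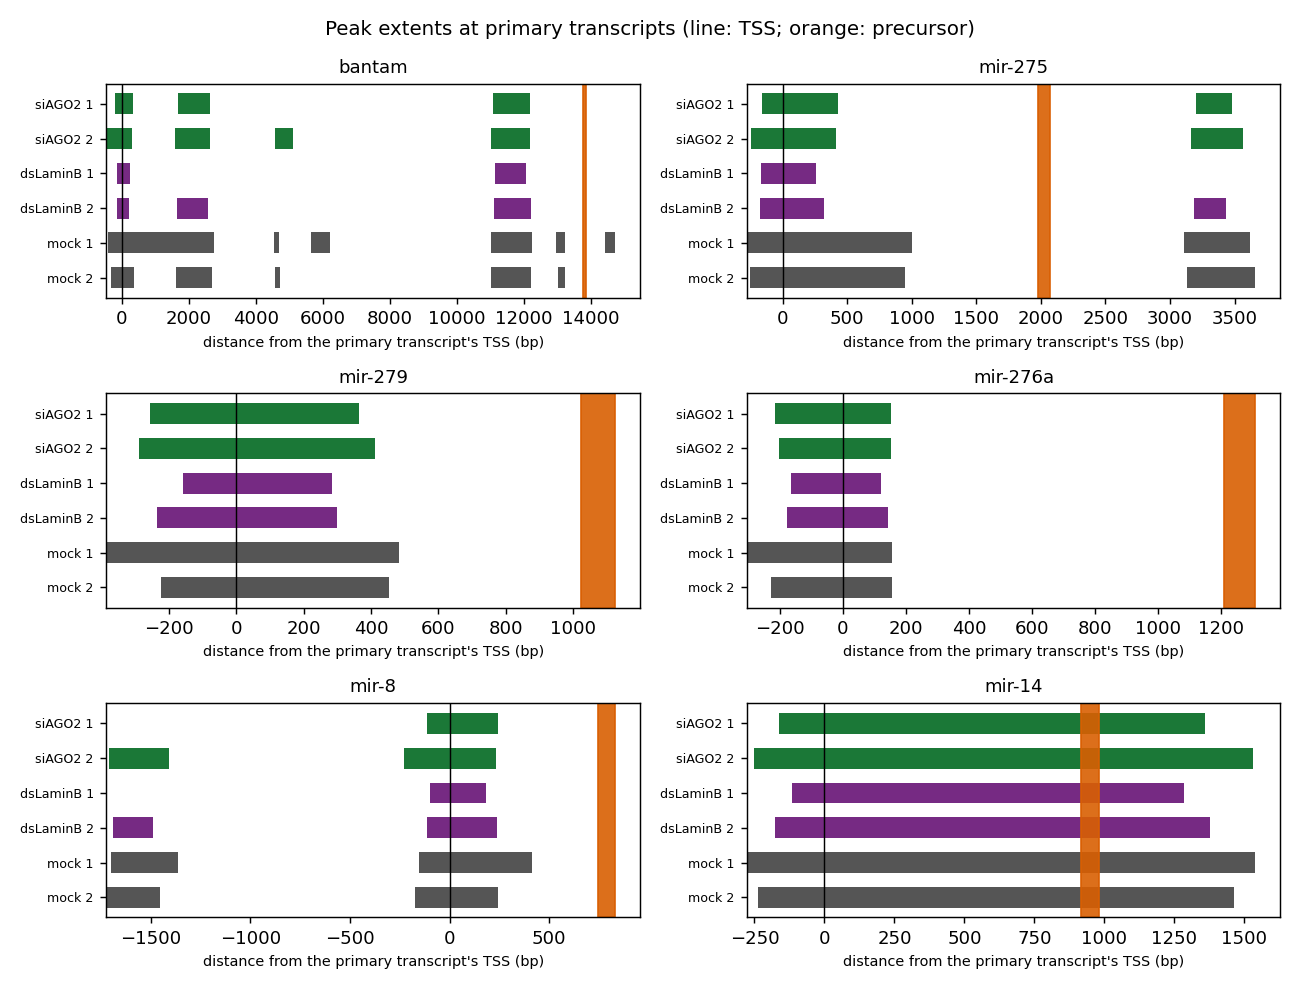
Extent of the Pol II peaks (bars) at 6 primary transcripts, by library, along the distance in bp from the start of the transcript; the black line is the start and the orange band the precursor. A peak sits at each start and, except at mir-14, ends before the precursor, mir-275 and bantam have peaks past the precursor in 5 libraries and 1, the mock bars are the longest at mir-275, and bantam has a further peak in all 6 libraries that begins 11013 to 11140 bp after the start.

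The promoters of these transcripts are printed because their start base lay under a peak in all 6 libraries. They are the 4 with the highest mean percentile on the arms 2L, 3L and 3R, each from 100 bp before the start to 50 bp after its first base inclusive, on the strand of the microRNA, in the dm6 genome. Capitals mark matches to TATAAA (the TATA box), TCAGT (the core of the fly initiator) or GAGAG (the core of sites bound by GAGA factor), searched on both strands.
mir-275, chr2L:7423720-7423869, plus strand: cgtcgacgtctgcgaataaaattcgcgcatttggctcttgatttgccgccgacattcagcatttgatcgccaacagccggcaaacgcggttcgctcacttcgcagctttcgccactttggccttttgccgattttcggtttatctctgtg
mir-276a, chr3L:10363919-10364068, plus strand: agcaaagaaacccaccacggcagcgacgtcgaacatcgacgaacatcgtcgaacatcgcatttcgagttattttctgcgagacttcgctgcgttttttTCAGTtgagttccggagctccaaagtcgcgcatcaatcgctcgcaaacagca
mir-279 and mir-996, chr3R:29214462-29214611, plus strand: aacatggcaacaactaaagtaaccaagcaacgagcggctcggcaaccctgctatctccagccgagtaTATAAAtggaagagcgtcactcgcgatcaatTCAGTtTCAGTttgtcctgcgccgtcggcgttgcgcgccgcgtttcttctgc
bantam, chr3L:628335-628484, plus strand: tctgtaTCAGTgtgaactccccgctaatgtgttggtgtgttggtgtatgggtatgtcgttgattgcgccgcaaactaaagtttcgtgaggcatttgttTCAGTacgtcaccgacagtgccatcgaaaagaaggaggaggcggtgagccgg
TCAGT began 2 bases before the start at mir-276a, mir-279 and bantam, which puts its A on the annotated first base. That placement was found in 3 of the 11 primary promoters and in 2.56% of 19276 protein-coding starts. TATAAA on the sense strand with its first base 35 to 25 bases before the start was found in 3 of the 11, mir-279, mir-282 and Hsromega, and in 5.53% of coding starts. Anywhere in the 150 bases and on either strand, TATAAA was found in 3 of the 11 and 21.8% of coding starts, TCAGT in 4 and 37.8%, and GAGAG in 6 and 20.4%. A match to so short a string is a description of the sequence and shows no bound factor.

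The loci were also grouped by known role. In the list of growth and survival microRNAs all 4, bantam, mir-14, mir-8 and mir-278, had a peak in all 6 libraries at the start of their primary transcript or host. mir-278 is the one in a coding host, CG42524, with percentiles of 50.0 and 83.2 in siAGO2, 55.6 and 70.1 in dsLaminB and 73.7 and 77.5 in mock. In the list of metabolic and germline microRNAs 6 of 8 did, mir-33 among them through its host SREBP, the regulator of lipid synthesis, which stood at 77.7 and 86.2 in siAGO2, 87.5 and 88.5 in dsLaminB and 76.6 and 79.0 in mock. Of the nervous system and sensory organ list 2 of 7 did, mir-279 and mir-996, and of the developmental timing list 1 of 4, mir-34. None of the 2 muscle microRNAs, the 3 of the homeotic complexes and the 8 of the early embryo cluster had a peak at a start, over the precursor or upstream of it in any library, and the same was so of mir-124, mir-9a, mir-263a (named mir-bft in the annotation), mir-263b, let-7, mir-100 and mir-125. mir-133, and mir-305 and mir-317 of the metabolic and germline list, have no annotated coding host or noncoding gene, so for them only the precursor windows were read. The lists were set by role and no test was made of them.

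The K box family, whose seed targets the pro-apoptotic genes of the fly, showed the split within a single seed. It is shown because loci with and without a start peak encode RNAs with the same seed. The 14 mature RNAs with this seed come from the 13 listed precursors and mir-5. The next sequences are those of members on 2L, 3R and X, with the seed in capitals.
mir-2a-1, 3′ arm, chr2L:19569902-19569924, minus strand, host spi: uAUCACAGccagcuuugaugagc
mir-2b-2, 3′ arm, chr2L:19570189-19570211, minus strand, host spi: uAUCACAGccagcuuugaggagc
mir-13b-2, 3′ arm, chrX:9091275-9091296, plus strand, host CCT2: uAUCACAGccauuuugacgagu
mir-11, 3′ arm, chr3R:21622504-21622524, minus strand, host E2f1: cAUCACAGucugaguucuugc
mir-2c, 3′ arm, chr3R:15417761-15417783, minus strand, noncoding gene: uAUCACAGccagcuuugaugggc
mir-13a, 3′ arm, chr3R:15417548-15417569, minus strand, noncoding gene: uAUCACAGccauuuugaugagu
mir-13b-1, 3′ arm, chr3R:15417412-15417433, minus strand, noncoding gene: uAUCACAGccauuuugacgagu
The start of the host carried a peak in all 6 libraries for 7 of the 13: mir-2a-1, mir-2a-2 and mir-2b-2 in spi (the EGF receptor ligand Spitz), mir-2b-1 in the kinase gene Btk, mir-13b-2 in the chaperonin subunit gene CCT2, mir-11 in the cell cycle regulator E2f1 and mir-308 in the ribosomal protein gene RpS23. The other 6, mir-2c, mir-13a and mir-13b-1 in 1 noncoding cluster and mir-6-1, mir-6-2 and mir-6-3 in the early embryo cluster, had none in any library. mir-13b-1 and mir-13b-2 give the same mature sequence, and a start peak was found for mir-13b-2 only.

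Among the K box hosts the spi start had the highest mean percentile over the 6 libraries, 89.1. Its fold enrichments were 6.65 and 16.7 in siAGO2, 7.59 and 7.23 in dsLaminB and 11.5 and 6.18 in mock. Its peak was 508 and 936 bp wide, 351 and 457 bp, and 984 and 980 bp. E2f1 had fold enrichments of 6.47 and 11 in siAGO2, 6.14 and 4.29 in dsLaminB and 11.2 and 6.77 in mock, with both dsLaminB values lowest. RpS23 had percentiles of 70.7 and 69.2 in siAGO2, 22.4 and 71.5 in dsLaminB and 64.7 and 55.8 in mock, so that its low value belonged to dsLaminB replicate 1 alone. At mir-308 the RpS23 peak reached the precursor in siAGO2 replicate 2 and both mock libraries, where it was 1310, 1226 and 1200 bp wide. It did not in the 3 others, where it was 384, 238 and 632 bp wide.

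**Figure D5:**
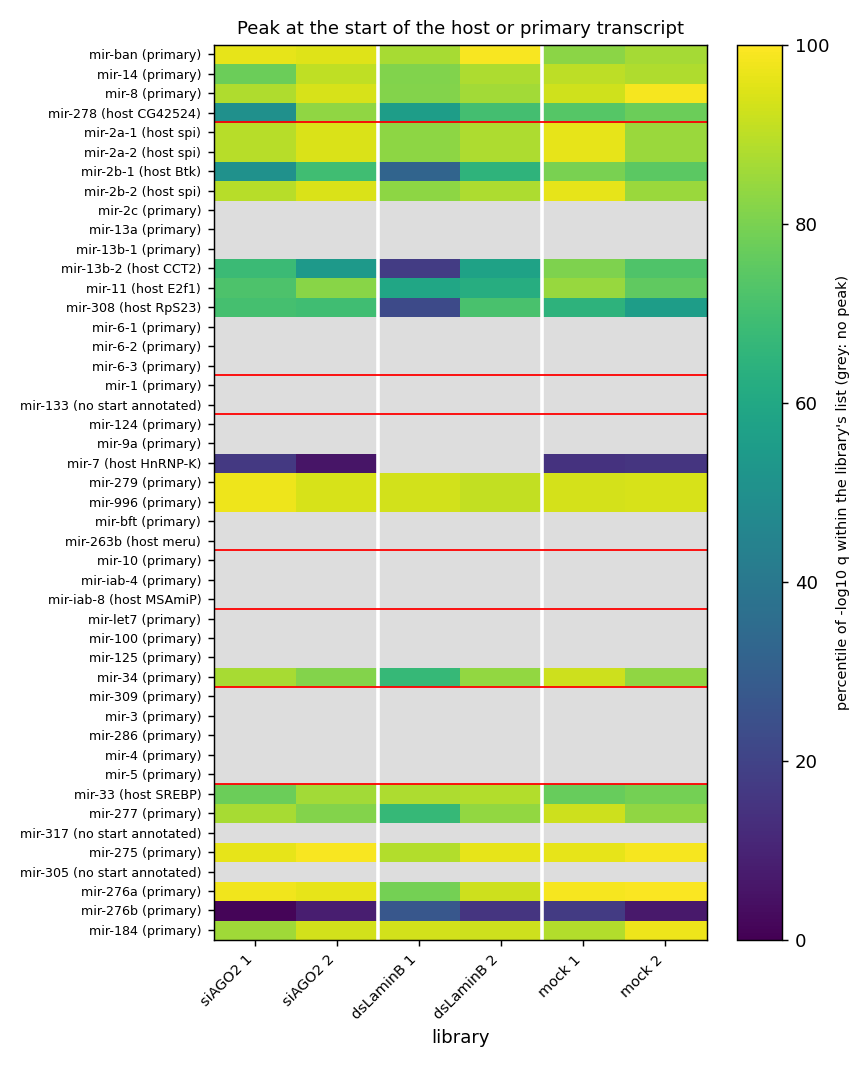
Strength of the strongest Pol II peak within 500 bp of the start of the host or primary transcript of each role-list microRNA, as the percentile of -log10 q within the library's own list, with grey for no peak and red lines between roles. The growth rows at the top are filled in all 6 libraries, and the muscle, homeotic and early embryo rows are grey throughout.

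Across all 128 coding hosts, 54 had a start peak in all 6 libraries (42.2%, against 19.7% of all coding genes), 74 without dsLaminB replicate 1, and 40 had none in any library. The highest mean percentiles were those of Cyp4e2 (mir-986), with percentiles of 99.5 and 99.2 in siAGO2, 95.1 and 99.8 in dsLaminB and 99.2 and 97.0 in mock, and of Gmap, a Golgi protein gene and host of mir-12, mir-283 and mir-304, with 90.4 and 99.7, 99.9 and 100.0, and 99.6 and 98.2. Over the 54, the median fold enrichment was 5.92 and 12.2 in siAGO2, 5.86 and 6.68 in dsLaminB and 9.67 and 7.59 in mock, and the median width 448 and 536.5 bp, 301 and 427 bp, and 720 and 630 bp. grp, the fly Chk1 kinase gene and host of mir-9b, mir-9c, mir-79 and mir-306, had a peak in all 6, of 304 and 279 bp in siAGO2, 213 and 197 bp in dsLaminB and 1035 and 1097 bp in mock. The 40 hosts without a peak included the neuronal genes Appl, Nlg2, Nrx-1, tau and nAChRalpha2, the chemoreceptor genes Ir8a and Ir93a, and yl, the yolk protein receptor of the oocyte. Not all neuronal hosts lacked one: Tomosyn and rdgA had a start peak in all 6 libraries, Octbeta2R in 5 and cpx in 4.

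Of the 34 precursors in the form of a mirtron, 1 and 1 were under a peak in siAGO2, 0 and 1 in dsLaminB and 2 and 1 in mock. A host with a start peak was found for 17 and 18 of them in siAGO2, 8 and 16 in dsLaminB and 18 and 19 in mock. For all 136 precursors with a coding host, the 34 among them, the counts were 87 and 93, 63 and 87, and 94 and 95. The share was thus lower for the 34 in each library, which was not tested.

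With all libraries and all peaks, 1 precursor lost its peak in siAGO2 and 9 in dsLaminB, and none gained one. These counts depended on the libraries: 11 were lost in siAGO2 without siAGO2 replicate 2, 3 without mock replicate 1 and 2 without siAGO2 replicate 1, 30 in dsLaminB without dsLaminB replicate 2, and with lists of equal length 4 were lost and 3 gained in dsLaminB. Lost means a peak over the precursor or within 2000 bp upstream in both mock libraries and in neither library of the knockdown, and gained the reverse. The precursor lost in siAGO2 was mir-4942, of the 59 that had the peak in both mock libraries. Over all genes with the same windows 2.5% were lost and 0.0438% gained in siAGO2. In dsLaminB 9 were lost and none gained, or 3.46% of the 260, where 11.2% of all genes were lost and 0.0383% gained. These shares are over all members and all genes, with all libraries and all peaks. No share over all genes was computed with a library left out or with lists of equal length. The counts lost or gained under those settings therefore have no such share beside them. At host starts 1 of 128 was lost in siAGO2, that of PAPLA1, and none gained, against 2.94% and 0.0286% of all coding genes. In dsLaminB 6 were lost, those of Abca3, CG12241, HnRNP-K, PAPLA1, Prp8 and Usp12-46, and none gained, against 13.3% and 0% of all coding genes. A further 20 hosts lacked the peak in dsLaminB replicate 1 only.

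The 9 precursors lost in dsLaminB were mir-2b-2, mir-252, mir-980, mir-991, mir-992, mir-1016, mir-3641, mir-4942 and mir-11182. Most of these peaks were of low rank in mock. The mir-252 start is given above. mir-991 and mir-992 are neighbours whose upstream peak was the one at the HnRNP-K start, with percentiles of 14.7 and 15.3 in mock and 5.75 in siAGO2 replicate 2. HnRNP-K, an RNA-binding protein gene, is also the host of mir-7. Its start had fold enrichments of 3.64 and 3.04 in siAGO2 and 3.75 and 3.69 in mock and no peak in either dsLaminB library. mir-980 lay under a peak in both siAGO2 libraries (fold enrichments 4.11 and 6.30) and both mock libraries (5.26 and 5.12) and had none in dsLaminB.

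For mir-2b-2, and for mir-1016 in 1 of the dsLaminB libraries, a peak lay just past the edge of the window. The spi peak lay 2034 and 1957 bp upstream of mir-2b-2 in siAGO2, 2114 and 2045 bp in dsLaminB and 1894 and 1963 bp in mock, on either side of the 2000 bp limit, and the spi start kept its peak in all 6 libraries. The Opa1 peak stood 2052 bp upstream of mir-1016 in dsLaminB replicate 2, against 1817 and 1807 bp in mock, and in dsLaminB replicate 1 the Opa1 start had no peak. mir-4942, lost in both knockdowns, is the precursor that the mock peaks touched by few bases, with percentiles of 17.1 and 0.795.

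The genes of the microRNA pathway were read the same way, as the machinery of the RNAs described here. Of the 8 processing genes, a start peak was found for 5 and 6 in siAGO2, 1 and 5 in dsLaminB and 7 and 6 in mock. Only Ranbp21, the fly Exportin-5 gene, had it in all 6, and loqs had it in none. drosha, Dcr-1, Cbp20 and Cbp80 lacked it in dsLaminB replicate 1 only, Ars2 in siAGO2 replicate 1 and both dsLaminB libraries, and pasha had it in mock replicate 1 alone. Of the 8 effector genes, the counts were 5 and 7, 3 and 4, and 8 and 8. AGO1, Not1 and the deadenylase gene Pop2 had it in all 6, DCP2 in all but dsLaminB replicate 1, and gw, twin, me31B and DCP1 in 3 each. The 2 genes that trim or tail RNA ends, Nbr and Tailor, had it in all 6. Peaks missing from 1 library in these lists fell mostly in dsLaminB replicate 1, the shortest list.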

How the data were processed

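Pol II 8WG16 ChIP-seq of Kc167 cells was compared in 6 immunoprecipitated libraries, 2 each of siAGO2, dsLaminB and mock, grouped by their titles. The 6 input samples carry no file here and were not analysed. The submitters' processing notes name cutadapt 1.10, Bowtie2, Picard 2.11.0 and MACS2 2.1.1.20160309. The authors called broad peaks for each library against input on dm6 and deposited, per peak, a display score, a fold enrichment (a ratio over the local background) and -log10 p-values and -log10 q-values. The lists hold no q weaker than -log10 of 1.00 to 1.05. The score was not used.

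Genes, transcripts and biotypes came from Ensembl BDGP6, in which pre_miRNA is a transcript biotype, and bases and mature positions from the RefSeq copy of that assembly. Peaks over a precursor shared at least 1 bp with it, upstream windows were 2000 bp on its strand, and start windows 500 bp on either side. The strongest peak by -log10 q stands for a window. Percentiles rank that value within a list, but they do not make lists of different length equal. Over the 2750 coding genes with a start peak in all 6 libraries, the median was 78.9 in mock replicate 1. It was 50.5 in dsLaminB replicate 1. Counts were compared by a two-sided exact permutation test over libraries. Nothing says whether replicates were separate cultures, so their spread may be technical. Leaving out each library, a stricter q, equal list lengths, other windows and a replicate block were tried. Overlaps were computed in Python 3.11.15 with NumPy 2.4.6 and pandas 2.3.3 and tested on simulated peaks.

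Precursors, role lists and windows were chosen with earlier results of these data known. The text names the precursors under a peak in all 6 libraries, the role lists, the loci lost or gained, their hosts and the pathway genes. Genes named beyond these, among them mir-282, mir-995, mir-986, mir-10404-4, Gmap, grp and the hosts without a peak, were chosen after their values were seen.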

Additional observations from a re-analysis of the deposited data

How the results depend on the processing

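The siAGO2 minus mock difference in upstream peaks turned to 0.5, and that in host starts to 1, when each list was reduced to the same number of strongest peaks (exact p = 1 for both). The other 49 of 51 recomputed differences kept their sign. For the replicate block this holds by construction, since its mean differences are the main ones. Clusters as 1 locus also left the differences over the precursor unchanged, as no precursor under a peak lay in a cluster. No exact p fell under 0.333, which is the least the permutation test can give here. These settings were -log10 q of at least 5, equal lists, clusters as 1 locus, 50% of the precursor covered, upstream windows of 500 and 5000 bp, precursors over 2500 bp from every coding start, host windows of the start base or 1500 bp, any host transcript, and the block. Precursors lost in siAGO2 were 3 with -log10 q of at least 5. Those lost in dsLaminB were 14 with that limit and 4 with equal lists, which also gave 3 gained. The cause was not tested, and no share over all genes was computed under these settings.

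Leaving out 1 library at a time gave 1 to 11 lost and 0 to 1 gained in siAGO2, with 11 without siAGO2 replicate 2, 3 without mock replicate 1 and 2 without siAGO2 replicate 1. In dsLaminB it gave 9 to 30 lost, with 30 without dsLaminB replicate 2, and 0 to 1 gained, with 1 without either dsLaminB library. The matching shares over all genes were not computed. All 36 such differences kept their sign. They ran from -8.5 to -0.5, -12 to -7 and 1 to 9 for peaks over the precursor (siAGO2 minus mock, dsLaminB minus mock, siAGO2 minus dsLaminB), from -12 to -2, -31 to -9 and 2 to 24 upstream, and from -7.5 to -1.5, -31.5 to -7.5 and 3 to 27 at host starts. Chosen after seeing the data, the count with an upstream peak in every library rose to 46 without dsLaminB replicate 1, against 29 in all 6.

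With the replicate number as a block, the mean differences were the same, such as -20 upstream for dsLaminB minus mock, and the exact sign-flip p was 0.5 or 1, 0.5 being the least that 2 pairs allow. The numbers pair no samples by the labels, and same-numbered libraries shared little of their deviations, with correlations of -0.045, 0.025 and 0.073 in the 3 comparisons. Depth is unknown here, so the share of missing peaks due to depth cannot be given.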
